A study of Mus musculus with 2 samples.

Results

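Antimicrobial secretory proteins were followed in single cells of mouse prostate as 9 genes chosen by symbol: Reg3g, Lcn2, Pglyrp1, Ltf, Slpi, Saa3, Lyz1, Camp and Ngp. All 9 were found among the 32285 mouse genes of the files. The study compared 1 library of prostate tumour tissue with 1 library of normal prostate tissue adjacent to tumour. The labels of the normal adjacent sample differ among themselves, since its title calls it healthy while its tissue type, followed here, is normal tissue next to tumour. CD45+ cells, which are leukocytes, and CD45- cells were sorted from each digested tissue and entered the same channel, so the ratio of epithelial to immune cells follows from the sort. The sources used here do not give the tumour model, the strain, the genotype, the age or the number of animals.

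These proteins act against bacteria in secretions, in the granules of neutrophils or in phagocytes. Epithelia that face a lumen secrete lectins, lipocalins and iron-binding proteins, and cytokines such as IL-17 and IL-22 are known to raise several of their genes in gut and skin. Neutrophils store some of the same proteins in granules, and in mouse the genes for granule proteins such as cathelicidin are transcribed mainly in maturing marrow precursors. A bulk sample of prostate would therefore mix several sources of the same transcript, and the cells were separated here by marker genes that include none of the 9.

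The letters in front of 4 of these genes are shown because they stand for the epithelial pair, the neutrophil gene and the phagocyte gene on which the values below turn. Each window runs from 250 bases before to 50 bases after the RefSeq transcript start on GRCm38.p6, all on the minus strand: Reg3g at chr6:78468825-78469124, Lcn2 at chr2:32387690-32387989, Slpi at chr2:164356458-164356757 and Lyz1 at chr10:117292819-117293118. Capitals mark matches to the C/EBP letters TTGCNNAA or TTNNGCAA, and in Lyz1 also a match to the NF-kappaB letters GGAANNTCC or GGANNTTCC.
Reg3g: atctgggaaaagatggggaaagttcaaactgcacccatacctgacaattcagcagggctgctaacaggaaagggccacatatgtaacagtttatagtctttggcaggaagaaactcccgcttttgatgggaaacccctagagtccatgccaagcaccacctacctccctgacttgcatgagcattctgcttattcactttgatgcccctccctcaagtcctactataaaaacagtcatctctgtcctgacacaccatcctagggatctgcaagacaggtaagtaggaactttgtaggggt
Lcn2: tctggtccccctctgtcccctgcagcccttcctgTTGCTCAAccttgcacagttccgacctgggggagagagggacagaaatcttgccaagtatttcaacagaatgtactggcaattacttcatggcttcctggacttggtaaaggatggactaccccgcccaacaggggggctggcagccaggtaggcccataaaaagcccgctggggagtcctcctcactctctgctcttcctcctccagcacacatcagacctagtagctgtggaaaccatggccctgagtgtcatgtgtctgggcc
Slpi: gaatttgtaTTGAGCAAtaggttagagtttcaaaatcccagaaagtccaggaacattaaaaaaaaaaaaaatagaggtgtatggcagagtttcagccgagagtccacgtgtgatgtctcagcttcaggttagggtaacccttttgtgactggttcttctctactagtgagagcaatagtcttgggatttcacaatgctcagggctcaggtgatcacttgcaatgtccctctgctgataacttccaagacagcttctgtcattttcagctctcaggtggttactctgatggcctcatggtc
Lyz1: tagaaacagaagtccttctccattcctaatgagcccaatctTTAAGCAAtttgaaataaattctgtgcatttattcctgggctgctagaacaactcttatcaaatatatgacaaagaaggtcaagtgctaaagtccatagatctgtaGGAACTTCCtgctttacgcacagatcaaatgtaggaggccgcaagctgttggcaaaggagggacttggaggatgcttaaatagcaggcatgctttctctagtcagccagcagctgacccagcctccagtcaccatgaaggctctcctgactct
Of all 9 windows, 6 held the C/EBP letters on either strand (Lcn2, Slpi, Saa3, Ltf, Ngp and Lyz1), against 10.8% of 32851 RefSeq windows of the same length. The NF-kappaB letters were in 2 of 9 (Pglyrp1 and Lyz1), against 4.26% of all windows. The STAT letters TTCNNNGAA were in 0 of 9, against 8.30% of all windows. A match is a run of letters and was not tested as a binding site.

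Molecules were counted by unique molecular identifiers (UMIs), 92188538 over 8237 barcodes in the tumour library and 77855775 over 6553 barcodes in the normal adjacent library. After filtering, 7768 tumour cells and 6209 normal adjacent cells were left, and 18 barcodes occurred in both libraries. The epithelial gate took 410 tumour and 285 normal adjacent cells, the neutrophil gate 810 tumour and 414 normal adjacent cells, and the macrophage gate 1088 tumour and 711 normal adjacent cells. In epithelial cells Epcam, the epithelial adhesion molecule, stood at 2292 CPM in tumour and 2330 CPM in normal adjacent tissue. Ptprc, which encodes CD45, stood there at 9.49 CPM in tumour and 11.3 CPM in normal adjacent tissue. Levels are in CPM, for which a gene's UMIs were scaled to the summed UMIs of the same gated cells. A further 32.2% of tumour cells and 30.1% of normal adjacent cells passed the gates of 2 or more lineages and were kept apart as mixed, with 53.6% and 56.9% of all UMIs. Each group was a single library, so no test between them was possible, and the 95% intervals in brackets cover counting error only.

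Epithelial cells held most UMIs of Reg3g and Lcn2 in both libraries. Reg3g (ENSMUSG00000030017) encodes a C-type lectin that kills Gram-positive bacteria, and Lcn2 (ENSMUSG00000026822) encodes lipocalin 2, which binds the siderophores with which bacteria take up iron. Of 9340 Reg3g UMIs in tumour cells 72.9% (72.0 to 73.8) lay in epithelial cells, and of 3471 in normal adjacent cells 90.3% (89.3 to 91.3). Mixed cells that passed the epithelial gate held another 22.3% in tumour and 4.26% in normal adjacent tissue, and 1 mixed tumour cell alone had 1237 Reg3g UMIs. For Lcn2 the epithelial share was 66.2% (65.3 to 67.0) of 13183 UMIs in tumour and 65.8% (64.6 to 67.0) of 6233 in normal adjacent tissue. Neutrophils were a further Lcn2 source, with 6.62% in tumour and 7.78% in normal adjacent tissue, and mixed cells that passed the neutrophil gate held 9.28% and 11.2%.

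**Figure D1:**
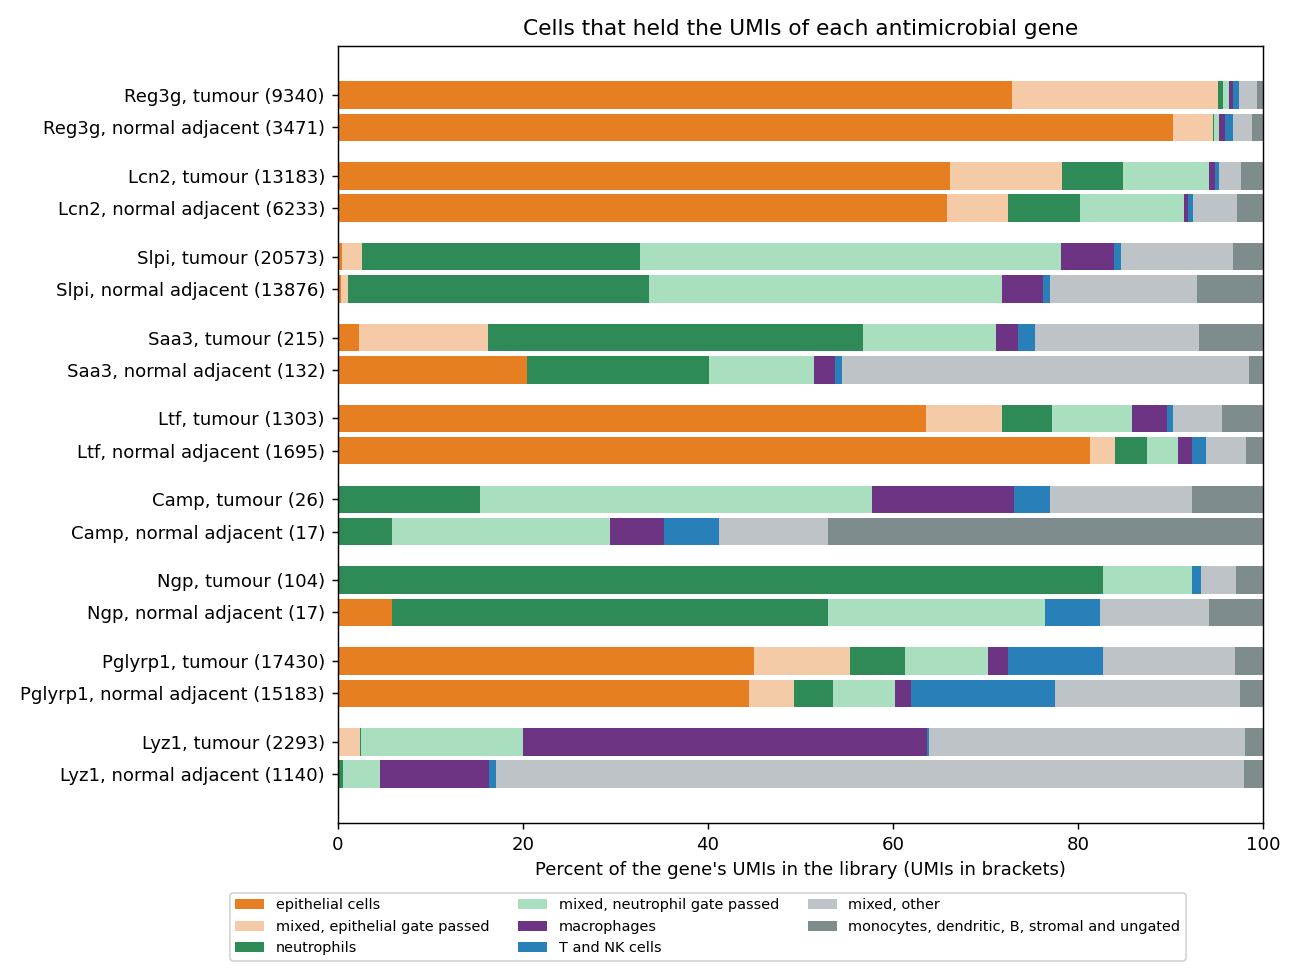
Percent of each gene's UMIs (horizontal axis) held by each kind of gated cell, one bar per gene and library with tumour above normal adjacent and the gene's UMIs in brackets. The epithelial part was 72.9% and 90.3% for Reg3g, while neutrophils and mixed cells that passed the neutrophil gate made up most of the Slpi bars.

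The remaining genes fell into other sources. Pglyrp1 (ENSMUSG00000030413), a peptidoglycan recognition protein, had 45.0% of its UMIs in epithelial cells of tumour and 44.5% in those of normal adjacent tissue, with 10.3% and 15.5% in T and NK cells. Of the UMIs of all genes, epithelial cells held 8.09% in tumour and 6.76% in normal adjacent tissue. T and NK cells held 11.4% and 15.4% of them, close to their shares of Pglyrp1. Ltf (ENSMUSG00000032496), the iron-binding lactotransferrin of exocrine secretions and neutrophil granules, had 63.6% in epithelial cells of tumour and 81.2% in those of normal adjacent tissue. Slpi (ENSMUSG00000017002), an inhibitor of neutrophil elastase with antibacterial activity, was mostly outside the epithelium. Neutrophils held 30.0% of its 20573 UMIs in tumour and 32.5% of 13876 in normal adjacent tissue, mixed cells that passed the neutrophil gate 45.5% and 38.1%, and epithelial cells 0.506% and 0.339%. Camp (ENSMUSG00000038357), which encodes the cathelicidin, was nearly undetected, with 26 UMIs in all tumour cells and 17 in all normal adjacent cells.

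In the epithelial gate as a whole, 5 of the 9 genes had the 50 UMIs over both libraries that a call of 2-fold needed. None was called higher in tumour, where 1.55% of 10497 genes were, and 1 was called lower (Ltf), where 0.800% of genes were. The median log2 ratio of the 5 was 0.59, against 0.07 over all genes tested. Reg3g stood at 923 CPM (901 to 945) in tumour and 602 CPM (581 to 623) in normal adjacent epithelial cells, a ratio of 1.53 (1.47 to 1.601). Lcn2 stood at 1182 CPM (1157 to 1207) in tumour and 787 CPM (763 to 812) in normal adjacent epithelial cells, a ratio of 1.501 (1.45 to 1.56). Both were thus higher in tumour by more than counting error and by less than the 2-fold call. Pglyrp1 was lower in tumour, at 1063 CPM against 1296 CPM in normal adjacent epithelial cells, a ratio of 0.821 (0.794 to 0.848). Ltf was at 112 CPM in tumour and 264 CPM in normal adjacent epithelial cells, a ratio of 0.425 (0.389 to 0.463).

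The sums were carried by few cells. In tumour the 41 cells with the most Reg3g of the 410 held 91.4% of it, and in normal adjacent tissue the 29 of 285 with the most held 92.3%. The same number of top cells held 62.8% of Lcn2 in tumour and 71.4% in normal adjacent tissue, and 97.6% and 98.8% of Ltf. Reg3g had at least 1 UMI in 44.1% of tumour epithelial cells and in 32.6% of normal adjacent ones. Median depth was 14338 UMIs in tumour and 11277 in normal adjacent epithelial cells. With every cell thinned to 1000 UMIs, which left out 47 tumour and 45 normal adjacent cells, the Reg3g shares were 19.8% and 17.5%, a difference of 2.34 points (-4.18 to 8.48). For Lcn2 the shares of cells were 66.6% in tumour and 54.7% in normal adjacent tissue, and thinned 39.4% and 27.5%, a difference of 11.9 points (4.18 to 19.2). At 1000 UMIs per cell more epithelial cells of the tumour library thus had Lcn2, while for Reg3g the interval included 0. Thinned to 500 UMIs, the Lcn2 shares were closer to each other, at 26.1% in tumour and 20.35% in normal adjacent tissue. No interval was computed for that difference.

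B cells, taken as cells that should not express these genes, served as the measure of free RNA. Thinned, 1.12% of tumour B cells and 1.09% of normal adjacent B cells had a Reg3g UMI, 0% (0 to 2.04) and 0% (0 to 1.33) an Lcn2 UMI, and 5.03% and 4.35% a Pglyrp1 UMI. Their median depth was 4425 UMIs in tumour and 4691 in normal adjacent tissue. For Pglyrp1 B cells were not the lowest gate, at 51.9 CPM in tumour and 49.5 CPM in normal adjacent tissue. Macrophages stood at 29.3 and 41.0 CPM and monocytes at 29.8 and 23.3 CPM. The B cell share of Pglyrp1 is thus no floor, and the part of free RNA in it was not tested. Thinned epithelial shares for Pglyrp1 were 30.9% in tumour and 29.6% in normal adjacent tissue, and for Ltf 6.34% and 5.00% against 0.559% and 0% of B cells. Slpi was at 2.20% of thinned epithelial cells in tumour and 0.833% in normal adjacent tissue, against 1.12% of tumour and 1.45% of normal adjacent B cells. Its level was 14.1 CPM (11.5 to 17.1) in tumour and 9.02 CPM (6.63 to 12.0) in normal adjacent epithelial cells, against 4.97 CPM (2.0 to 10.25) in tumour and 18.5 CPM (12.6 to 26.25) in normal adjacent B cells. One normal adjacent B cell held 67.7% of the 31 UMIs there. Without the top cell of each library B cells stood at 3.58 CPM in tumour and 6.01 CPM in normal adjacent tissue. Epithelial cells then stood at 11.6 CPM and 7.15 CPM. The part of free RNA in the epithelial Slpi was not tested.

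When epithelial cells were split by keratins, the summed level of Reg3g differed in opposite directions on the 2 sides. The luminal progenitor side, with 98 tumour and 73 normal adjacent cells, is set by Krt4, Psca and Ly6d, and the basal side, with 187 and 107 cells, by Krt5, Krt14, Krt15 and Trp63. On the luminal progenitor side Reg3g was at 2145 CPM (2088 to 2204) in tumour and 710 CPM (672 to 749) in normal adjacent tissue, a ratio of 3.02 (2.84 to 3.21). On the basal side it was at 356 CPM (337 to 375) in tumour and 750 CPM (715 to 786) in normal adjacent tissue, a ratio of 0.475 (0.442 to 0.510). The difference between the 2 sides was not tested, since each side had 1 library per tissue.

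Lcn2 was higher in tumour on the luminal progenitor side, at 1530 CPM against 590 CPM in normal adjacent tissue, a ratio of 2.59 (2.42 to 2.77). On the basal side it was at 1223 CPM in tumour and 1150 CPM in normal adjacent tissue, a ratio of 1.06 (1.01 to 1.12), and 88.8% of tumour and 82.2% of normal adjacent basal-side cells had a UMI. By the 2-fold rule Lcn2 was thus higher in tumour on the luminal progenitor side and within 2-fold on the basal side. Reg3g and Lcn2 were the 2 genes called higher of the 4 with enough UMIs on the luminal progenitor side, where 1.09% of 7681 genes were called higher, and none of the 4 was called lower, where 0.963% were. The median log2 ratio of the 4 was 0.79, against -0.02 over all genes.

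Single cells weighed on these sums. The 2 tumour cells with the most Reg3g held 45.9% of its luminal progenitor side UMIs, and the 2 such normal adjacent cells 40.6%. Without those 2 cells of each library the ratio was 2.66, and with each cell given equal weight it was 2.41. With cells thinned to 1000 UMIs, 36.8% of tumour and 25.7% of normal adjacent luminal progenitor side cells had a Reg3g UMI, a difference of 11.1 points (-3.33 to 24.5). For Lcn2 these shares were 38.9% and 24.3%, a difference of 14.7 points (0.165 to 27.9).

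Pglyrp1 and Ltf were lower in tumour on the basal side. Pglyrp1 was at 674 CPM in tumour and 1416 CPM in normal adjacent tissue there, a ratio of 0.476 (0.452 to 0.502), but at 2026 CPM in tumour and 1747 CPM in normal adjacent tissue on the luminal progenitor side, a ratio of 1.16 (1.11 to 1.21). Ltf was at 69.6 CPM in tumour and 222 CPM in normal adjacent tissue on the basal side, a ratio of 0.314 (0.270 to 0.365), and at 222 CPM in tumour and 438 CPM in normal adjacent tissue on the luminal progenitor side, a ratio of 0.507 (0.454 to 0.565). Of the 5 genes with enough UMIs on the basal side, 3 were called lower (Reg3g, Ltf and Pglyrp1), where 0.761% of 8672 genes were, and 1 higher (Slpi), where 0.934% were. The median log2 ratio of the 5 was -1.07, against 0.00 over all genes. Without the 2 cells with the most UMIs in each library the Reg3g ratio was 0.520 and the Pglyrp1 ratio 0.543, and neither met the 2-fold rule.

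Thinning and equal weights changed Ltf most. The ratio in the whole epithelial gate was 1.23 with cells thinned to 1000 UMIs and 0.923 with each cell given equal weight, and on the basal side 0.921 and 0.853. The thinned Ltf level of the whole gate was thus higher in tumour, and the other 3 ratios lay below 1 but within 2-fold. The highest tumour epithelial cell had 150 Ltf UMIs and the highest normal adjacent cell 260. Slpi on the basal side rested on 85 UMIs in tumour and 20 in normal adjacent tissue, a ratio of 2.53 (1.54 to 4.35), with 2.23% and 0% of thinned cells positive. At full depth 13.9% of tumour and 13.1% of normal adjacent basal-side cells had a Slpi UMI. Its level there was 22.0 CPM in tumour and 8.71 CPM in normal adjacent tissue, against 4.97 CPM and 18.5 CPM in B cells. Without the top cell of each library it was 17.2 CPM and 7.25 CPM there, against 3.58 CPM and 6.01 CPM in B cells.

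**Figure D2:**
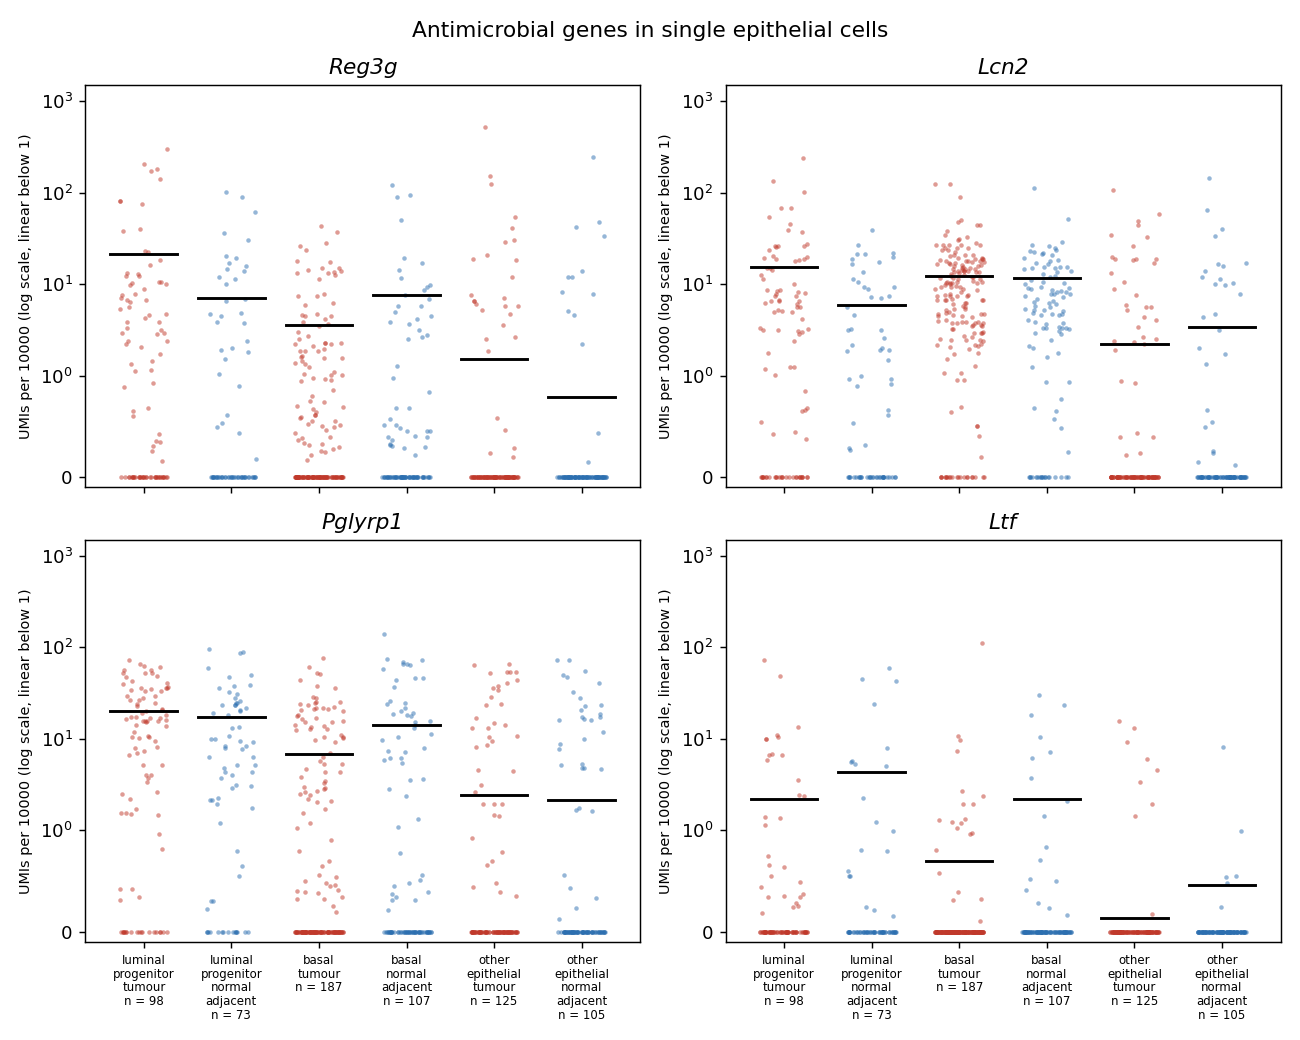
UMIs of Reg3g, Lcn2, Pglyrp1 and Ltf per 10000 UMIs in each epithelial cell (vertical axis, logarithmic above 1), with tumour cells in red left of normal adjacent cells in blue and black lines at the summed level. Most cells sat at 0 for Ltf, and the luminal progenitor side lines for Reg3g and Lcn2 were higher in tumour, at ratios of 3.02 and 2.59.

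Epithelial cells that had 1 of these genes often had another. With all UMIs, 81.2% of the tumour epithelial cells with Reg3g had Lcn2, against 55.0% of those without it, and the normal adjacent shares were 84.95% and 40.1%. Pglyrp1 was found in 67.4% of tumour cells with Reg3g and 35.8% without, and in 78.5% and 37.0% of normal adjacent cells. Deeper cells can have more of both genes, so the counts were repeated in cells thinned to 1000 UMIs. There 73.6% of tumour cells with Reg3g had Pglyrp1, against 20.3% of those without, and 76.2% against 19.7% in normal adjacent tissue. The thinned shares for Lcn2 were 50.0% against 36.8% in tumour and 52.4% against 22.2% in normal adjacent tissue. Of the 4 genes Reg3g, Lcn2, Pglyrp1 and Ltf, 41.0% of thinned tumour cells had none and 1.93% all 4, and 51.7% and 1.25% of normal adjacent cells.

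Across single epithelial cells, the gene most like Reg3g was Pglyrp1 in both libraries, with a Pearson correlation of log2 values of 0.590 over 410 tumour cells and 0.602 over 285 normal adjacent cells. In tumour Reg3b, another lectin of the same family, and Wfdc18, a whey acidic protein family member, followed at 0.531 and 0.493. The gene most like Pglyrp1 was Wfdc2, another such family member, at 0.707 in tumour and 0.738 in normal adjacent tissue, with Pigr, the receptor that carries IgA across epithelia, at 0.691 in tumour. Lcn2 had Ly6a, a membrane-anchored surface antigen, first at 0.583 in tumour and Igfbp7 first at 0.512 in normal adjacent tissue, and Ifitm3 was among the first 3 in both, at 0.538 and 0.486. Ltf had Cxcl5 first in tumour at 0.433, and Cxcl17, a mucosal chemokine, at 0.429 in tumour and 0.381 in normal adjacent tissue. Cells of one library share depth and free RNA, so these values describe the cells and carry no test.

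Most neutrophils held Slpi, at levels well within 2-fold of each other in the 2 libraries. Slpi was at 3341 CPM (3258 to 3425) in tumour and 3686 CPM (3579 to 3795) in normal adjacent neutrophils, a ratio of 0.906 (0.872 to 0.942). A UMI was found in 79.5% of tumour and 78.3% of normal adjacent neutrophils, and thinned in 70.1% and 67.7%, a difference of 2.39 points (-3.12 to 8.06). The cell gate was checked with Cxcr2, the neutrophil chemokine receptor, at 224 CPM in tumour and 173 CPM in normal adjacent neutrophils, against 0.542 and 0.192 CPM in epithelial cells. Slpi was lower in macrophages, at 93.5 CPM in tumour and 91.9 CPM in normal adjacent tissue, a ratio of 1.02 (0.923 to 1.12). In monocytes it was at 21.5 CPM in tumour and 147 CPM in normal adjacent tissue, where 2 of 121 cells held 44.8% of it.

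Neutrophils carried Lcn2 with little Reg3g beside it, unlike epithelial cells. Lcn2 was at 472 CPM (441 to 504) in tumour and 397 CPM (362 to 434) in normal adjacent neutrophils, a ratio of 1.19 (1.06 to 1.33), and thinned in 21.5% and 19.7% of cells. Neutrophils had 5.38 Reg3g UMIs (3.93 to 7.22) per 100 Lcn2 UMIs in tumour and 1.24 (0.452 to 2.71) in normal adjacent tissue. Epithelial cells had 78.1 (75.6 to 80.6) in tumour and 76.4 (72.9 to 80.1) in normal adjacent tissue. In macrophages the numbers were 47.6 (31.8 to 70.2) and 70.0 (38.1 to 126), from 84 and 30 Lcn2 UMIs. Pglyrp1 in neutrophils was at 556 CPM in tumour and 527 CPM in normal adjacent tissue, a ratio of 1.06 (0.955 to 1.17), and Ltf at 37.8 CPM in tumour and 49.1 CPM in normal adjacent tissue, a ratio of 0.771 (0.538 to 1.11). Both intervals included 1.

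In neutrophils 7 of the 9 genes had at least 50 UMIs, and 3 were called higher in tumour (Reg3g, Saa3 and Ngp), where 0.850% of 4120 genes were. None was called lower, where 1.21% were. The median log2 ratio of the 7 was 0.25, against 0.02 over all genes. All 3 calls rested on few molecules. Ngp (ENSMUSG00000032484), which encodes a granule protein related to cathelicidins, had 86 UMIs in 5 tumour neutrophils and 8 UMIs in 5 normal adjacent ones, a ratio of 7.10 (3.45 to 17.0), and 50 of the 86 lay in 1 cell. Saa3 (ENSMUSG00000040026), a serum amyloid A made outside the liver, had 87 UMIs in 7 tumour neutrophils and 26 in 3 normal adjacent ones, a ratio of 2.21 (1.41 to 3.57), with 41 of the 87 in 1 cell. Ngp was seen in 0.617% of tumour and 1.21% of normal adjacent neutrophils, and Saa3 in 0.864% of tumour and 0.725% of normal adjacent ones. Reg3g had 47 UMIs in tumour and 6 in normal adjacent neutrophils, a ratio of 5.18 (2.21 to 14.8), and thinned it was in 2.04% (1.17 to 3.29) and 0.758% (0.156 to 2.20) of cells, against 1.12% and 1.09% of B cells. Without the cell with the most UMIs in each library only Saa3 kept a call in neutrophils, since the others fell under 50 UMIs.

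Camp, Elane and Mpo were near 0 in neutrophils. Camp had 4 UMIs in 810 tumour neutrophils and 1 UMI in 414 normal adjacent ones. Elane, which encodes neutrophil elastase, had 0 UMIs in neutrophils of both libraries, and Mpo, which encodes myeloperoxidase, had 1 in tumour and 2 in normal adjacent tissue. In epithelial cells Camp had 0 UMIs in both libraries, which allows a share of cells with a UMI of up to 0.732% of 410 tumour cells and 1.05% of 285 normal adjacent cells. This limit is on cells with a UMI at this depth, not on cells that express Camp. Ngp had 0 UMIs in tumour and 1 in normal adjacent epithelial cells, and Lyz1 0 and 2. Saa3 had 5 UMIs in tumour and 27 in normal adjacent epithelial cells, 20 of the 27 in 1 cell.

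**Figure D3:**
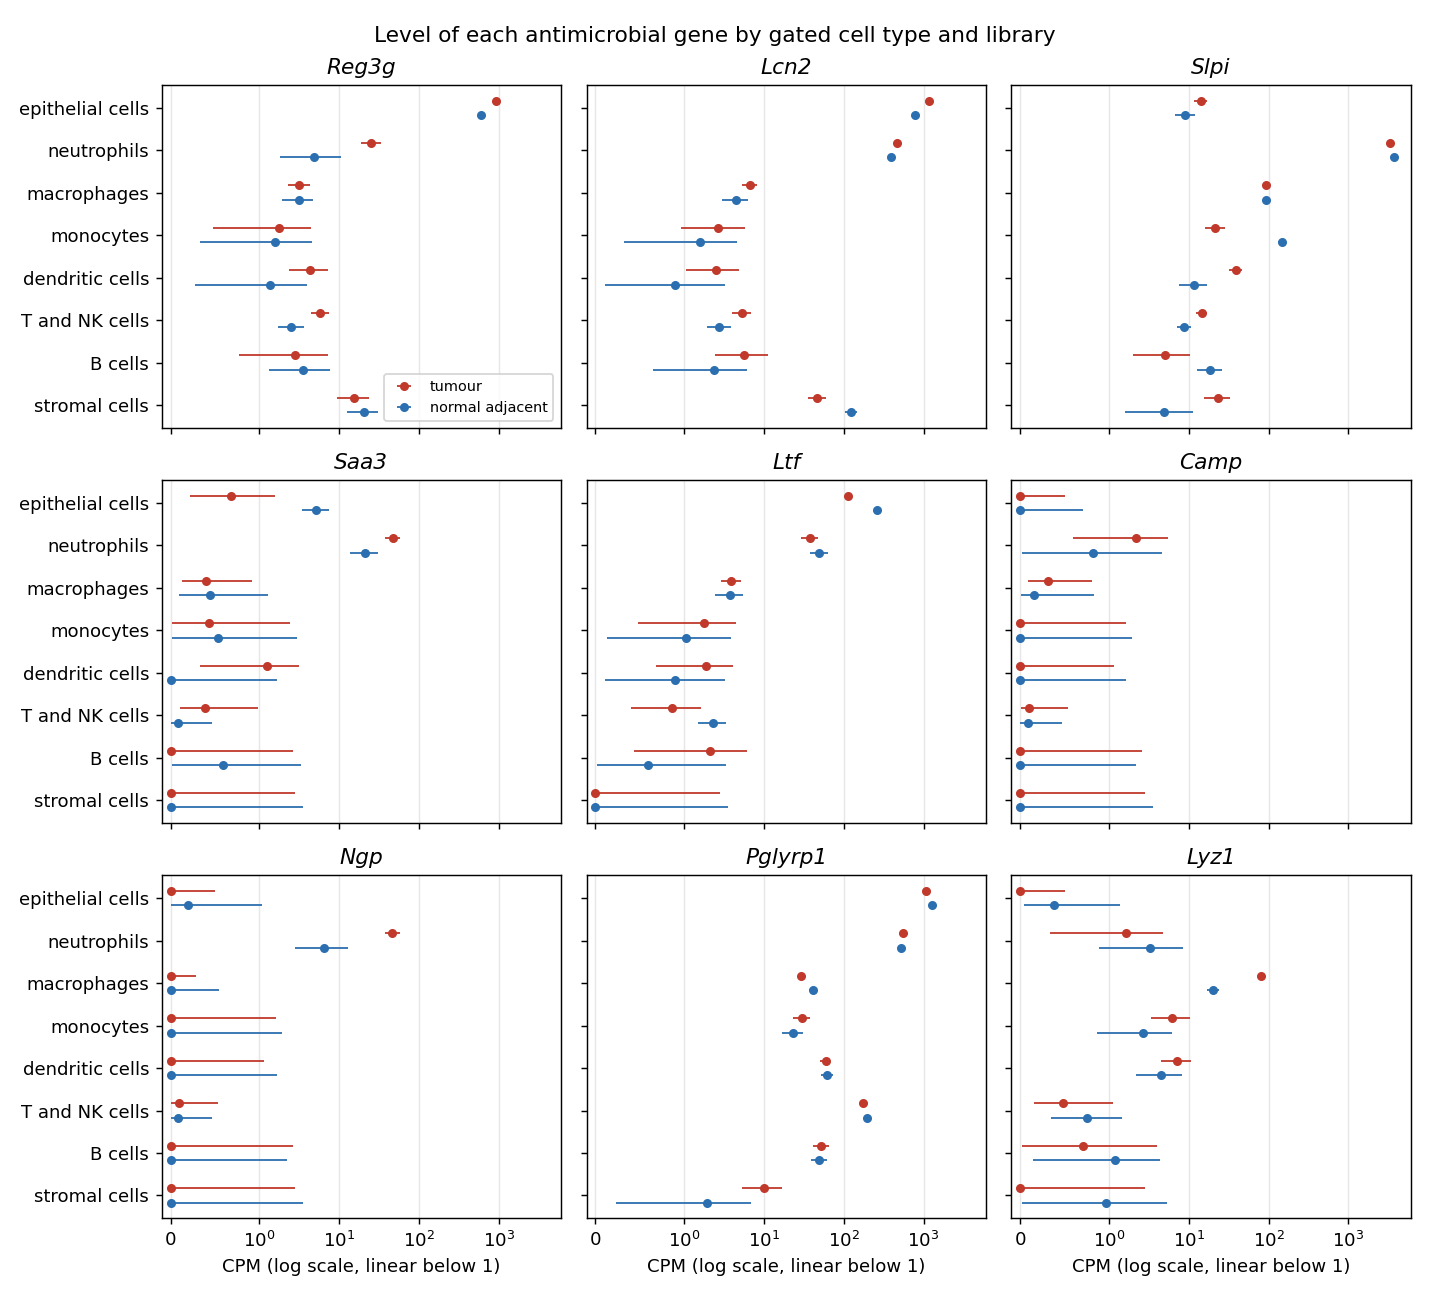
Level of each gene in CPM (horizontal axis, logarithmic above 1) in 8 kinds of gated cells, tumour in red above normal adjacent in blue, with 95% Poisson intervals. Reg3g, Lcn2, Ltf and Pglyrp1 were highest in epithelial cells, Slpi in neutrophils and Lyz1 in macrophages in both libraries.

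Across the gates Reg3g and Ltf both had epithelial cells first and no other gate above 50 CPM. For Ltf neutrophils came next, at 37.8 CPM in tumour and 49.1 CPM in normal adjacent tissue. For Reg3g stromal cells stood at 15.3 CPM (9.33 to 23.6) in tumour and 20.3 CPM (12.6 to 31.0) in normal adjacent tissue, from 20 and 21 UMIs, and neutrophils at 25.4 CPM (18.7 to 33.8) and 4.91 CPM (1.80 to 10.7). Pglyrp1 had epithelial cells first, then neutrophils, then T and NK cells at 173 CPM (165 to 181) in tumour and 198 CPM (190 to 206) in normal adjacent tissue, then dendritic cells at 59.2 and 61.5 CPM and B cells at 51.9 CPM (40.7 to 65.2) and 49.5 CPM (39.4 to 61.4). The dendritic and B cell levels of Pglyrp1 did not differ beyond their intervals. T and NK cells were above B cells in both libraries, also when thinned, at 10.9% and 12.6% of cells against 5.03% and 4.35%.

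In the other gates few of the 9 genes had enough UMIs for a call. In stromal cells only Lcn2 had enough, at 46.6 CPM in tumour and 123 CPM in normal adjacent tissue, a ratio of 0.380 (0.275 to 0.519), and it was called lower, where 1.21% of 5560 genes were and 1.08% were called higher. One normal adjacent stromal cell held 63.0% of these UMIs, and without the top cell of each library the levels were 39.97 CPM in tumour and 46.7 CPM in normal adjacent tissue. Slpi was called in 2 gates. In dendritic cells it was at 38.7 CPM in tumour and 11.7 CPM in normal adjacent tissue, a ratio of 3.32 (2.16 to 5.28), and was called higher as 1 of 2 genes, where 0.570% of 6670 genes were called higher and 0.495% lower. There 2 tumour cells held 43.2% of the 125 UMIs, and 1 normal adjacent cell 57.7% of the 26. Without the top cell of each library the levels were 30.5 CPM in tumour and 4.96 CPM in normal adjacent tissue. Thinned, 1.93% of tumour and 0.6135% of normal adjacent dendritic cells had a Slpi UMI, a difference of 1.32 points (-1.67 to 3.88). In monocytes the Slpi ratio was 0.146 (0.106 to 0.199), and it was called lower as 1 of 2 genes, where 0.886% of 6096 genes were called lower and 0.869% higher. Thinned, 3.125% of tumour and 6.67% of normal adjacent monocytes had a Slpi UMI, a difference of -3.54 points (-9.74 to 1.598). In T and NK cells Reg3g was the 1 gene called higher of 4, where 0.637% of 10358 genes were, at 5.78 CPM in tumour and 2.52 CPM in normal adjacent tissue, a ratio of 2.29 (1.45 to 3.68). None of the 4 was called lower, where 0.502% of genes were. Over all kept cells Reg3g stood at 102 CPM in tumour and 45.0 CPM in normal adjacent tissue. In T and NK cells there were 109 Reg3g UMIs (74.4 to 160) per 100 Lcn2 UMIs in tumour. In normal adjacent tissue there were 90.9 (53.6 to 154), and epithelial cells had 78.1 in tumour and 76.4 in normal adjacent tissue. The part of free RNA in the T and NK cell Reg3g was not tested. Reg3g in B cells was at 2.84 CPM in tumour and 3.58 CPM in normal adjacent tissue, from 4 and 6 UMIs. In B cells only Pglyrp1 had enough UMIs and it was not called, where 2.29% of 5295 genes were called higher and 2.46% lower.

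Lyz1 marked few phagocytes. Lyz1 (ENSMUSG00000069515) encodes P lysozyme, which cuts bacterial cell walls and is best known in mouse from Paneth cells of the gut. Macrophages had 1001 Lyz1 UMIs in tumour and 134 in normal adjacent tissue, or 79.3 CPM (74.4 to 84.3) and 19.98 CPM (16.7 to 23.7), a ratio of 3.97 (3.31 to 4.79). A UMI was found in 5.70% of tumour and 4.64% of normal adjacent macrophages, against 0.552% and 0.678% of B cells. It was the 1 gene called higher of the 6 with enough UMIs in macrophages, where 0.914% of 10067 genes were, and none was called lower, where 0.497% were. The median log2 ratio of the 6 was 0.03, the same as over all genes.

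This Lyz1 ratio depended on how cells of 2 or more lineages were treated. Mixed cells held 54.0% of its 2293 UMIs in tumour and 84.8% of its 1140 UMIs in normal adjacent tissue. With such cells given to the gate whose markers were strongest the ratio was 1.74, with them counted in every gate they passed 1.63, and with stricter gates 1.44. Over all kept cells Lyz1 was at 25.1 CPM in tumour and 14.8 CPM in normal adjacent tissue. Lyz1 and Lyz2 transcripts were 96% identical over 1262 aligned bases in GENCODE vM21, so the split of reads between them by the authors' counting is uncertain.

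Macrophages with at least 5 Lyz1 UMIs were 16 of 1088 in tumour and 4 of 711 in normal adjacent tissue, and held 935 of 1001 and 97 of 134 UMIs. They also had Retnla, a secreted protein of alternatively activated macrophages, at 6739 CPM in tumour and 9174 CPM in normal adjacent tissue, against 177 and 154 CPM in the remaining macrophages. Not all of them had it, since a Retnla UMI was found in 75% of the 16 and 50% of the 4. In the remaining macrophages the shares were 5.69% in tumour and 4.385% in normal adjacent tissue. Ccr2, the monocyte chemokine receptor, was at 492 CPM in tumour and 944 CPM in normal adjacent tissue in the cells with at least 5 Lyz1 UMIs, against 152 and 173 CPM in the rest. C1qa, a complement subunit of macrophages, was at 1763 CPM in tumour and 1696 CPM in normal adjacent tissue in them, against 4780 and 4559 CPM in the rest. Their median depth was 24471 UMIs in tumour and 21607 in normal adjacent tissue, against 8985 and 7362 in the rest. These cells were picked by Lyz1 itself, so the values are a description.

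**Figure D4:**
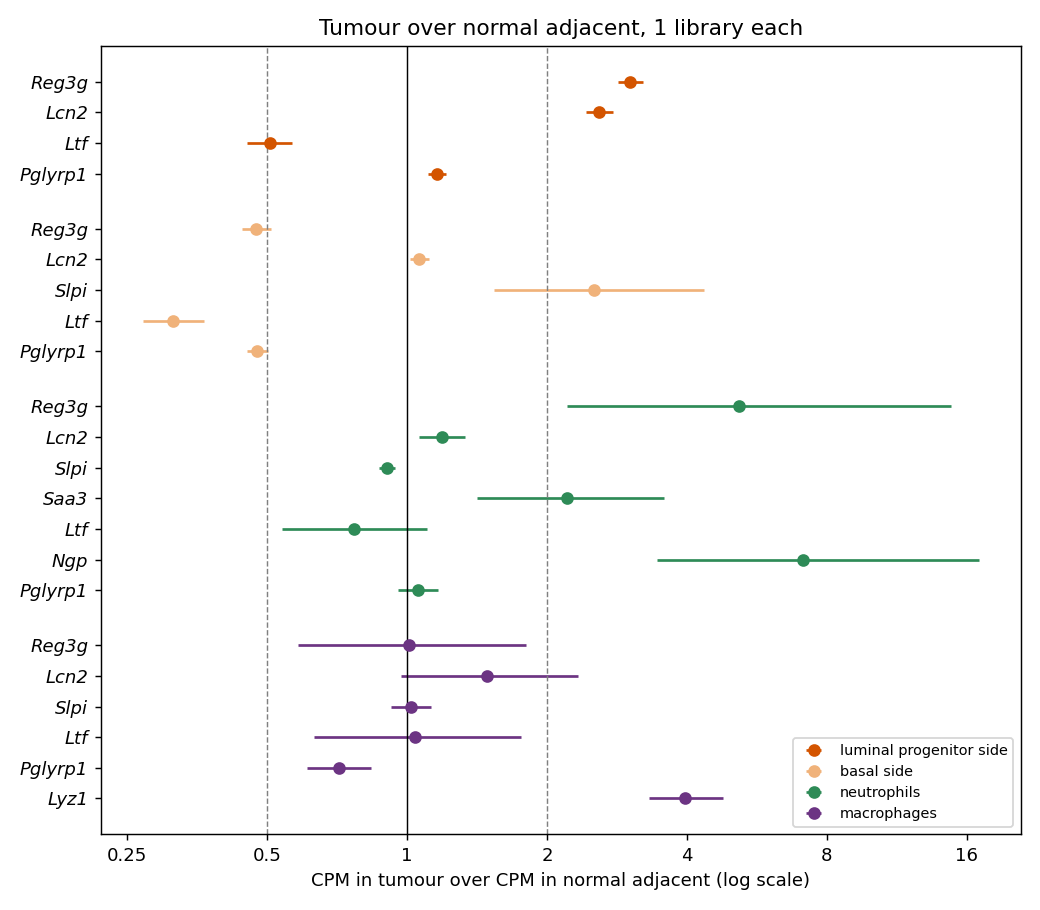
CPM in tumour over CPM in normal adjacent tissue (horizontal axis, logarithmic) with 95% counting intervals for genes with at least 50 UMIs over both libraries, by kind of cell, with dashed lines at 0.5 and 2. Reg3g lay at 3.02 on the luminal progenitor side and at 0.475 on the basal side, and the widest intervals were those of Reg3g and Ngp in neutrophils.

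Over the sums of 8 gates in 2 libraries, 16 points in all, the genes most like Reg3g were Clmn and Lama5, with Pearson correlations of log2(CPM + 1) of 0.983 and 0.982. Lama5 encodes a laminin chain of basement membrane. Lcn2 had Lrg1, Tm9sf3 and Fosl1 first, at 0.970, 0.951 and 0.947. Slpi had Acod1, the itaconate-making enzyme of activated myeloid cells, first at 0.956, and Ltf had Tmem40 at 0.970. Lyz1 had Lacc1 at 0.945, and Pglyrp1 Suco at 0.925. The points share libraries and free RNA, and 11421 genes were compared.

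Other antimicrobial genes were read from a list of 52, of which 50 were in the files. In epithelial cells 21 had enough UMIs, 1 was called higher in tumour, where 1.55% of all genes were, and 5 lower, where 0.800% were, with a median log2 ratio of -0.22 against 0.07 over all genes. Reg3b was the gene called higher, at 303 CPM in tumour and 127 CPM in normal adjacent tissue, a ratio of 2.38 (2.18 to 2.60), and 1 normal adjacent cell held 76.2% of its UMIs there. On the luminal progenitor side Reg3b was at 675 CPM in tumour and 36.3 CPM in normal adjacent tissue, and on the basal side at 113 CPM in tumour and 258 CPM in normal adjacent tissue, but 1 normal adjacent cell held 85.3% of the basal-side UMIs. Without the top cell of each library the basal-side levels were 61.7 CPM in tumour and 38.3 CPM in normal adjacent tissue, so the basal direction turned, while those of the luminal progenitor side were 426 CPM in tumour and 28.4 CPM in normal adjacent tissue. Lower in tumour were Defb50, a beta-defensin, at 634 CPM against 1955 CPM, Wfdc15b at 42.3 CPM against 358 CPM, Wfdc3 at 62.9 CPM against 267 CPM, Lypd8, a flagella-binding protein of the mouse colon, at 28.6 CPM against 68.1 CPM and Saa1, an acute-phase protein, at 1.76 CPM against 30.5 CPM in normal adjacent epithelial cells. One tumour cell held 48.4% of the tumour Defb50 and 1 normal adjacent cell 73.2% of the normal adjacent Lypd8. Svs4, which encodes a seminal vesicle secretory protein, was at 2447 CPM in tumour and 8549 CPM in normal adjacent epithelial cells, and at 5.29 CPM in tumour and 28.8 CPM in normal adjacent tissue on the luminal progenitor side. On the basal side Svs4 was higher in tumour, at 2028 CPM against 26.6 CPM in normal adjacent tissue. One tumour cell held 56.2% of the tumour epithelial Svs4, and without the top cell of that side the tumour basal-side level was 967 CPM. Its part in the epithelial differences was not tested.

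In neutrophils 14 of the other antimicrobial genes had enough UMIs, none was called higher in tumour, where 0.850% of all genes were, and 3 were called lower, where 1.21% were. Wfdc17 was at 628 CPM in tumour and 1999 CPM in normal adjacent neutrophils, Stfa1 at 29.7 CPM and 110 CPM and Stfa2, like Stfa1 a stefin that inhibits cysteine proteases, at 5.95 CPM and 32.7 CPM. S100a8 and S100a9, the calprotectin subunits, were at 29790 and 41030 CPM in tumour and 31820 and 41900 CPM in normal adjacent neutrophils, and S100a8 plus S100a9 had been used to gate them. In macrophages 17 had enough UMIs, none was called higher, where 0.914% of all genes were, and 2 were called lower, where 0.497% were, Chil3 at 14.9 CPM in tumour against 34.4 CPM in normal adjacent tissue and Defb50 at 1.58 CPM against 15.5 CPM. Defb50 had a UMI in 1.65% of tumour and 5.06% of normal adjacent macrophages, and the part of free epithelial RNA in this was not tested.

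Regulators of antimicrobial genes, a list of 38 cytokines, receptors and transcription factors with 36 in the files, mostly stayed within 2-fold. In epithelial cells 28 had enough UMIs and 1 was called higher, where 1.55% of all genes were, Il1b, an inflammatory cytokine, at 76.4 CPM in tumour and 34.4 CPM in normal adjacent tissue, with 39.4% of the tumour UMIs in 1 cell. In neutrophils 22 had enough and 1 was called lower, where 1.21% of all genes were, Tnf, another inflammatory cytokine, at 228 CPM in tumour and 595 CPM in normal adjacent tissue, a ratio of 0.383 (0.338 to 0.432). In macrophages 27 had enough and 2 were called higher, where 0.914% of all genes were, Il6 at 6.41 CPM in tumour against 1.79 CPM in normal adjacent tissue and Il22 at 3.56 CPM in tumour against 0.895 CPM in normal adjacent tissue. One tumour cell held 60.0% of the tumour Il22 UMIs in macrophages and another 46.9% of the Il6 UMIs. The median log2 ratios of the list were -0.03, 0.01 and -0.01 in epithelial cells, neutrophils and macrophages, against 0.07, 0.02 and 0.03 over all genes.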

How the data were processed

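Each library came as a matrix of whole-number UMI counts, deposited unnormalized by the authors, and per the file headers the program was Cell Ranger 4.0.0. The submitters' processing notes also name R 4.0.3 and Seurat 3.2.2, whose output was not used here, and a human genome build, although all features are genes of mouse. These sources state neither the build and annotation for mouse nor how cells were called. Per the labels, digestion took 45 min in collagenase (1 mg/ml), the strainer was 40 µm, cDNA had 14 cycles of amplification, and depth was 10000 reads per cell or more.

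Cells with at least 200 detected genes and at most 20% mitochondrial UMIs were kept. Gates used fixed marker lists: at least 3 of 12 epithelial markers with at least 20 per 10000 UMIs, calprotectin genes at 50 per 10000 with at least 2 of 8 neutrophil markers, at least 3 of 9 macrophage markers with at least 10 per 10000, and 5 more gates. Doublets were not called by a tool, and cells of 2 or more broad lineages were kept apart. An epithelial side needed at least 3 UMIs of its markers and more than the other side.

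CPM has exact Poisson intervals, shares have Clopper-Pearson intervals, differences of shares have Newcombe intervals, and a ratio of CPM has the exact conditional binomial interval, all at 95% and for counting error only. A gene was called with a CPM ratio of at least 2 or at most 0.5 and at least 50 UMIs over both libraries. List medians had 0.5 UMIs added, likeness over gates used genes with at least 200 UMIs, and a count of 0 was given the limit of 3 counts. The interval and call steps were tested on simulated data. Tools were Python 3.11.15, NumPy 2.4.6, SciPy 1.17.1, pandas 2.3.3, statsmodels 0.14.6 and matplotlib 3.10.9. All 9 genes were named, and of the other lists those past the fold, up to 8 per gate by UMIs. S100a8, S100a9, Svs4, Elane, Mpo, Cxcr2, Epcam, Ptprc, Retnla, Ccr2 and C1qa were named outside that rule. One gene that the rule for likeness picked is not reported here. The 9 genes and the lists were chosen with earlier results of these data known. Promoter letters came from RefSeq (GRCm38.p6), and the Lyz1 and Lyz2 transcripts compared from GENCODE vM21.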

Additional observations from a re-analysis of the deposited data

Results flagged for a closer look

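Ratios of tumour over normal adjacent tissue that lay on opposite sides of 1 in different cells, each beyond its counting interval, were found for 4 genes among the gates and epithelial sides where a gene had at least 50 UMIs. The differences between cell types were not tested, since each had 1 library per tissue. For Reg3g the ratio was 5.18 in neutrophils, from 47 UMIs in tumour and 6 in normal adjacent tissue, 3.02 on the luminal progenitor side of the epithelium and 2.29 in T and NK cells, but 0.475 on the basal side. Thinned shares of cells with Reg3g differed by 11.1 points (-3.33 to 24.5) on the luminal progenitor side. On the basal side they differed by -5.06 points (-15.08 to 3.85). For Lcn2 the ratio was 2.59 on the luminal progenitor side, 1.91 in T and NK cells, 1.19 in neutrophils and 1.06 on the basal side, but 0.380 in stromal cells. One normal adjacent stromal cell held 63.0% of the Lcn2 UMIs there. Without the top cell of each library the stromal levels were 39.97 CPM in tumour and 46.7 CPM in normal adjacent tissue. In T and NK cells Reg3g was at 5.78 CPM in tumour and 2.52 CPM in normal adjacent tissue. Lcn2 was there at 5.30 CPM in tumour and 2.78 CPM in normal adjacent tissue. The part of free RNA in these levels was not tested. For Slpi the ratio was 3.32 in dendritic cells, 2.53 on the basal side, from 85 UMIs in tumour and 20 in normal adjacent tissue, and 1.65 in T and NK cells, but 0.906 in neutrophils and 0.146 in monocytes. The dendritic value came from 125 UMIs in tumour and 26 in normal adjacent tissue, 57.7% of the latter in 1 cell. In normal adjacent monocytes 2 cells held 44.8% of the Slpi UMIs. For Pglyrp1 the ratio was 1.16 on the luminal progenitor side, but 0.871 in T and NK cells, 0.715 in macrophages and 0.476 on the basal side. The Pglyrp1 macrophage levels were 29.3 CPM in tumour and 41.0 CPM in normal adjacent tissue, below those of B cells.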

How the results depend on the processing

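No paired analysis was possible because each tissue had 1 library, and for the same reason no replicate could be left out. Of 269 comparisons of 27 ratios with another setting, 186 moved by less than the counting interval, 80 moved further and 3 turned a ratio whose interval had excluded 1 to the other side of 1. Those 3 were Ltf in epithelial cells (1.23) and on the luminal progenitor side (1.39), both with cells thinned to 1000 UMIs, and Slpi in neutrophils (1.01) with mixed cells counted in every gate they passed. Another 5 ratios, whose intervals included 1, lay on the other side of it under 1 setting each: Ltf (1.13) and Pglyrp1 (0.986) in neutrophils and Reg3g (0.458), Lcn2 (0.771) and Ltf (0.418) in macrophages. The Reg3b ratio on the basal side, 0.439, became 1.61 without the top cell of each library. Over all 10 settings the luminal progenitor side ratio ranged over 2.36 to 3.34 for Reg3g and 2.51 to 3.41 for Lcn2, and the basal side ratio of Reg3g over 0.441 to 0.520.

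The count of genes called in epithelial cells was 1, and became 3 with mixed cells in every gate, 0 with thinning, 0 with the mean of each cell's own CPM, 4 at a fold of 1.5 and 2 with at least 10 UMIs. In neutrophils it was 3, and 0 with thinning and 1 without the cell with the most UMIs in each library. Over all 10 settings the lowest ratio there was 3.70 for Reg3g and 2.86 for Ngp, so their calls were lost through the minimum of 50 UMIs. In macrophages it was 1, and 0 with stricter gates and 2 with the mean of each cell's own CPM. With mixed cells counted in every gate the macrophage call was Reg3g, at 9.04, in place of Lyz1, and with mixed cells given to the strongest gate it was Reg3g too, at 2.87. Of the 9340 Reg3g UMIs in tumour, 2081 lay in mixed cells that passed the epithelial gate and 40 in cells of the macrophage gate alone. The Lyz1 ratio in macrophages ranged over 1.44 to 10.2. Leaving out the shared barcodes moved none of the 27 ratios beyond its interval. Of 432 comparisons of the sources of UMIs 186 moved, and of 54 shares of thinned cells 21 moved at 500 UMIs. The 2 settings on weighting and denominator do not apply to sources. Giving mixed cells to the strongest gate and leaving out the 2 top cells, or the top cell for Reg3b, were chosen after seeing the data. The causes were not tested. Depth limits Camp, Ngp and Saa3 most, with 26, 104 and 215 UMIs in tumour and 17, 17 and 132 in normal adjacent tissue.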
